A study of Mus musculus with 9 samples.

Results

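The 34 genes described here make up the core of the p53 pathway and of its response to DNA damage. They were chosen by symbol, by a rule that uses no measured value but with earlier results of these data known. All 34 were found among the 17266 genes of the deposited table. RNA was sequenced from mouse bone marrow cells from which lineage-positive cells had been removed, taken from C57B/6 females at 6 weeks of age that had received no treatment. The cells were infected with retrovirus carrying the fusion gene ETV6-NCOA2 (3 libraries), the fusion gene KAT6A-NCOA2 (3 libraries) or, as Empty vector, MigR1-IRES-GFP with no fusion (3 libraries). All 3 groups spent 5 days in RPMI medium supplemented with SCF, IL-3 and IL-6, and all were sorted for GFP, which marks infected cells. Each fusion was thus driven by a viral vector in a mixed culture rather than from its own locus. Nothing in the labels ties the replicates to separate mice, infections or cultures, so the p-values cover the scatter of these 9 libraries alone, and that scatter may be technical.

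p53 is a transcription factor that is held low in unstressed cells by the ubiquitin ligase Mdm2 and its relative Mdm4. The kinases Atm and Atr sense broken or stalled DNA and act on p53 directly and through Chek2 and Chek1, after which p53 turns on genes for cell cycle arrest, cell death and DNA repair, and also Mdm2 itself. In blood progenitors the pathway is best known for removing stem and progenitor cells after irradiation, and RNA levels report on it only in part, since p53 is mainly controlled as a protein.

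The 9 libraries held 17070291 to 20377795 reads assigned to genes, and values are the authors' normalized counts, which are reads divided by one factor per library. Fold changes are on the log2(value + 1) scale with the standard error (SE) of limma's fit over all 9 libraries, and a gene was called when its adjusted p, by Benjamini-Hochberg adjustment over the 13750 genes tested, lay below 0.05. All 34 genes had at least 10 normalized counts in at least 3 libraries and were tested. In bulk RNA, fewer cells of a type and less RNA per cell cannot be told apart, and marker genes of several cell types differed between the groups. The summed markers of mast cells and basophils (8 genes) spanned 22526 to 36024 with ETV6-NCOA2, 9337 to 25522 with KAT6A-NCOA2 and 62641 to 118670 with Empty vector. Those of neutrophil granules (9 genes, with Ltf and Camp at 0 in a library) spanned 5672 to 10982 with ETV6-NCOA2, 986 to 1668 with KAT6A-NCOA2 and 13182 to 19103 with Empty vector. Macrophage markers (9 genes) spanned 570250 to 1044600 with ETV6-NCOA2, 1170200 to 1530800 with KAT6A-NCOA2 and 279990 to 827750 with Empty vector. Progenitor markers (5 genes, Kit among them) spanned 8920 to 12220 with ETV6-NCOA2, 5540 to 8719 with KAT6A-NCOA2 and 13656 to 20681 with Empty vector. Erythroid markers (7 genes) summed to 147 to 279 with ETV6-NCOA2, 199 to 229 with KAT6A-NCOA2 and 650.4 to 1398 with Empty vector, and stromal and endothelial markers (6 genes) to 1721 to 1788 with ETV6-NCOA2, 1462 to 1550 with KAT6A-NCOA2 and 1836 to 2516 with Empty vector. Of 8 lymphoid markers the table lists 4, which summed to 71.0 to 80.4 with ETV6-NCOA2, 51.5 to 69.3 with KAT6A-NCOA2 and 78.4 to 102 with Empty vector, with Cd79a at 0 in a library. The sum of 25 proliferation genes also separated the groups, at 17454 to 19759 with ETV6-NCOA2, 12322 to 14929 with KAT6A-NCOA2 and 23727 to 36163 with Empty vector. The values of the fusion partner Ncoa2, 1374 to 1399.9 with ETV6-NCOA2, 1262 to 1421 with KAT6A-NCOA2 and 1255 to 1384 with Empty vector, overlapped, so they do not check the group labels. The part of these differences in cell markers and proliferation genes in the results below was not tested.

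Limma called 10 of the 34 genes in KAT6A-NCOA2 cells against Empty vector cells. Mdm2, the kinases Plk2 and Plk3, the sestrin Sesn1 and the stress gene Gadd45b rose, with fold changes between 1.26 and 2.12, and Trp53 itself, the checkpoint kinases Atr and Chek1, the membrane protein gene Perp and the repair gene Xpc fell. The 10 genes are 29.4% of the 34, where 25.4% of all 13750 genes were called in this comparison (11.6% higher and 13.7% lower). In ETV6-NCOA2 cells against Empty vector cells limma called a single gene of the 34, the arrest gene Btg2, which rose. This is 2.94%, where 2.84% of all genes were called (1.02% higher and 1.82% lower). At an unadjusted limma p under 0.05, 10 of the 34 were higher and 5 lower with ETV6-NCOA2 than with Empty vector. With KAT6A-NCOA2 10 were higher and 10 lower at that level, for which the share of all genes was not counted. A gene that was not called is thus not shown to be unchanged. Set directly against KAT6A-NCOA2 cells, ETV6-NCOA2 cells had more Btg2 and more of the TNF receptor family gene Eda2r. These calls are 5.88% of the 34, where 3.09% of all genes were called (2.84% higher and 0.247% lower). By limma's calls the share of the 34 was near that of all genes in each comparison with Empty vector, while in ETV6-NCOA2 against Empty vector DESeq2 called 17.6% of the 34 and 7.39% of all genes. With the replicate number as a block over all 9 libraries, limma called 11.8% of the 34 and 7.15% of all genes between the fusions. With the block over only the 6 fusion libraries, these shares were 35.3% and 14.9%.

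**Figure D1:**
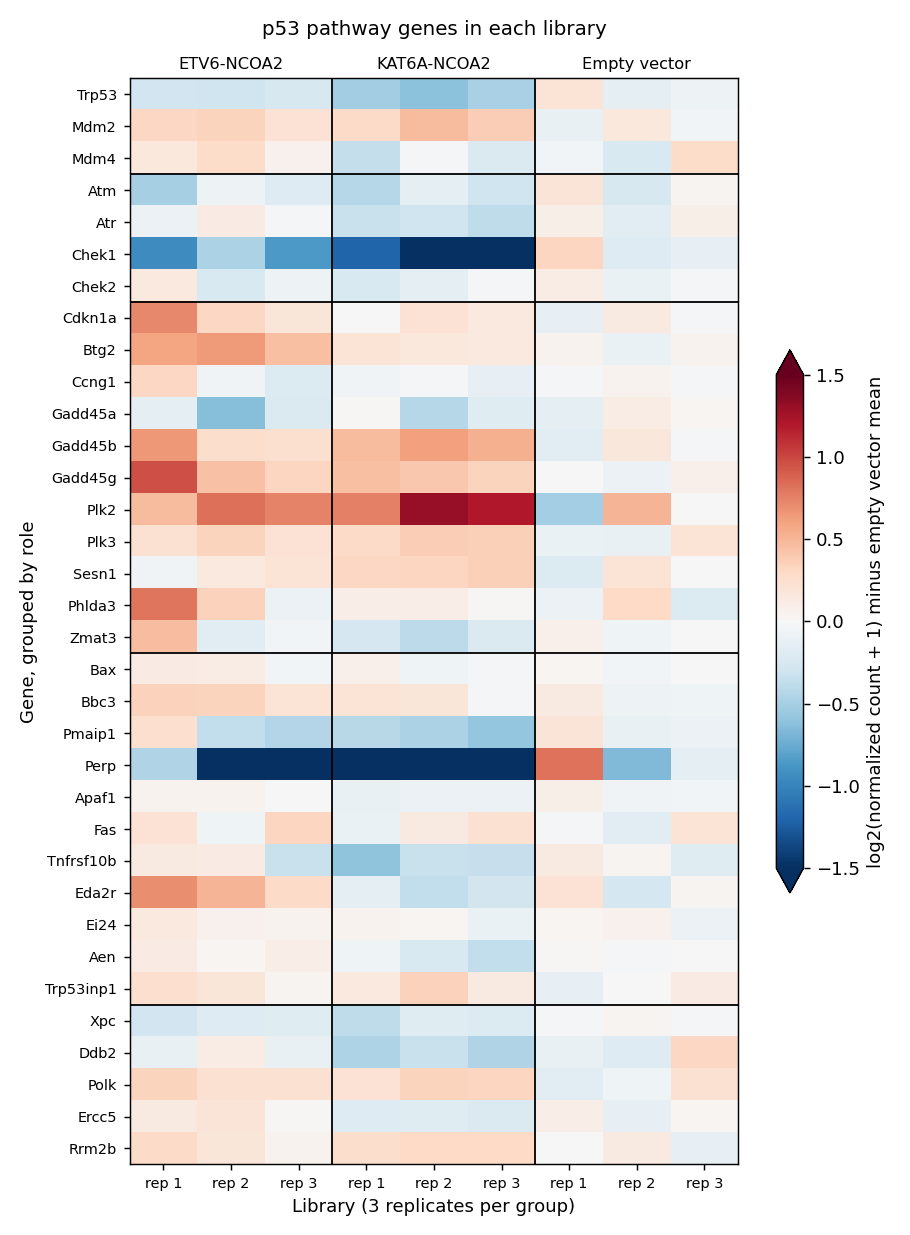
Log2 difference of each of the 34 genes in each library from that gene's mean log2 value over the Empty vector libraries. Genes are ordered by role and libraries stand in columns, ETV6-NCOA2 left, KAT6A-NCOA2 next and Empty vector right. Perp and Chek1 run lowest in the KAT6A-NCOA2 columns, and many target genes are highest in the first ETV6-NCOA2 column.

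Over all 34 genes, called or not, the direction differed between the comparisons. With ETV6-NCOA2 the mean was above that of Empty vector for 24 of the 34 genes (70.6%, where it was 51.7% of all genes tested), and the median log2 fold change was 0.094, where that of all genes was 0.009. The 3 ETV6-NCOA2 libraries lay wholly above the 3 Empty vector libraries for 9 genes (26.5%, against 9.01% of all genes) and wholly below for 4 (11.8%, against 12.5%), together 38.2%, where 21.5% of all genes had no overlap. With KAT6A-NCOA2 the mean was above that of Empty vector for 14 genes (41.2%, where it was 52.2% of all genes tested) and below it for 20, with a median log2 fold change of -0.081, where that of all genes was 0.016. The KAT6A-NCOA2 libraries lay wholly above Empty vector for 9 genes and wholly below for 12, together 61.8%, where 42.9% of all genes had no overlap (21.2% above and 21.7% below). Between the fusions, the mean was higher with ETV6-NCOA2 for 25 genes (73.5%, where it was 48.5% of all genes), with a median log2 fold change of 0.153, where that of all genes was -0.006. Without ETV6-NCOA2 replicate 1 this median was 0.076, with 22 genes higher, and without Empty vector replicate 2 the median for ETV6-NCOA2 against Empty vector was 0.061. The ETV6-NCOA2 libraries lay wholly above the KAT6A-NCOA2 libraries for 13 genes (38.2%, against 14.4% of all genes) and wholly below for Sesn1 alone (2.94%, against 12.8%), together 41.2%, where 27.2% of all genes had no overlap. The comparisons with Empty vector share its 3 libraries, so they are not independent of each other.

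**Figure D2:**
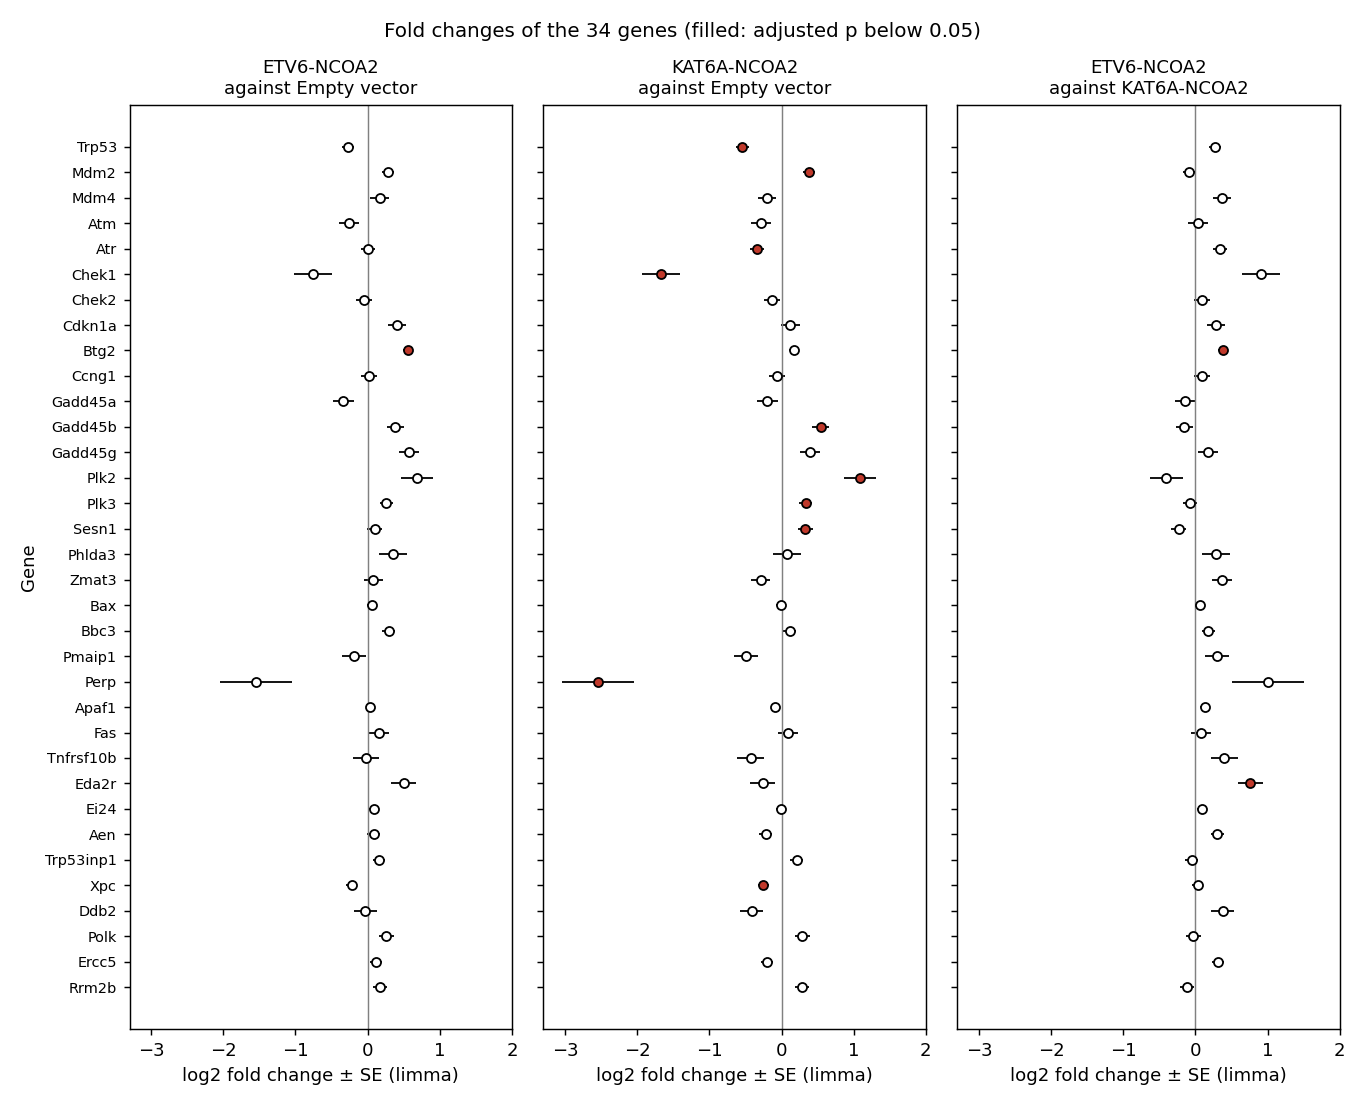
Log2 fold change (points) and its SE (bars) of the 34 genes in each of the 3 comparisons, with called genes filled. Perp, Chek1 and Plk2 lie farthest from 0 in KAT6A-NCOA2 against Empty vector, at -2.54, -1.67 and 1.09.

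Of the 34 genes, 26 have a promoter window in the RefSeq table used here, and Perp is not among them. The windows of the 4 of these 26 with the lowest adjusted p in any comparison are shown, since the results turn on them: Chek1 and Trp53, which fell, and Plk2 and Btg2, which rose. Each is the RefSeq promoter window on GRCm38.p6, 250 bases before to 50 after the annotated start, printed 5′ to 3′ on the gene's own strand, and capitals mark matches on either strand to the p53 decamer consensus, the E2F words TTGGCGC and TTCCCGC, the CCAAT box CCAAT or the CRE core TGACGT.
Chek1, chr9:36726609-36726908, minus strand: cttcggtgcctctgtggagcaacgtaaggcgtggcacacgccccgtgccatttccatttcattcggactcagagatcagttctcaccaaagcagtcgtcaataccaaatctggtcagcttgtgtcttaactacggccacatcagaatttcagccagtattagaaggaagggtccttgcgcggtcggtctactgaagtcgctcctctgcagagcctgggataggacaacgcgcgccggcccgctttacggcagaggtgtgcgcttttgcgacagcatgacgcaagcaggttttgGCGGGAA
Trp53, chr11:69580109-69580408, plus strand: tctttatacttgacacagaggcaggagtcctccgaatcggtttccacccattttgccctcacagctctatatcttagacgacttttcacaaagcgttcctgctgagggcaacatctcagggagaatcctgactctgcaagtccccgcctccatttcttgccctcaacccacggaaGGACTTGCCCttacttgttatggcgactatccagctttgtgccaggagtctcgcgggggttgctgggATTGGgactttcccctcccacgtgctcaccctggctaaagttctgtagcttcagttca
Plk2, chr13:110394794-110395093, plus strand: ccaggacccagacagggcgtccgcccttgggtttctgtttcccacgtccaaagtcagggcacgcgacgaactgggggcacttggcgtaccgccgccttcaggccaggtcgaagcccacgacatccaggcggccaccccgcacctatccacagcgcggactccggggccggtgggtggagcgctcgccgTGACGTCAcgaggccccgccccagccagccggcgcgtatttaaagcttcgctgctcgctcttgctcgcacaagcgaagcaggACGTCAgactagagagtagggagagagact
Btg2, chr1:134079106-134079405, minus strand: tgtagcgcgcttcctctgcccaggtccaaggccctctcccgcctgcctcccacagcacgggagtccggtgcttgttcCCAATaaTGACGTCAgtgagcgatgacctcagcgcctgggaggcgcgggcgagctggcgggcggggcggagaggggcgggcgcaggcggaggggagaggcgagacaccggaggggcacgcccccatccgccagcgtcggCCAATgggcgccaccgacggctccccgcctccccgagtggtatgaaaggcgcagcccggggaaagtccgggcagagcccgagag
The capitals at the end of the Chek1 window are the E2F word TTCCCGC read on the opposite strand; E2F factors are known to drive genes of the S phase. In the Trp53 window the longer run is a p53 decamer and the shorter one a CCAAT box on the opposite strand. Both Plk2 and Btg2 hold the CRE core TGACGT, the word bound by the CREB and ATF families, on both strands at overlapping positions; Plk2 has a further copy after the start, and Btg2 has 2 CCAAT boxes. In the first listed window of each of the 26 genes, 9 held a p53 decamer (34.6%), 4 an E2F word (15.4%), 13 a CCAAT box (50%), 3 a CRE core (11.5%) and 5 one of the words TTTGAA and TTCGAA of the CHR element (19.2%). Among all 32817 windows of the table these shares were 8.4%, 6.8%, 37.4%, 7.5% and 19.2%, in the same order. A match describes the letters in the window and shows no binding.

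The gene for p53 and that for its main inhibitor moved in opposite directions with KAT6A-NCOA2. Trp53 (chr11:69580359-69591873, plus strand, GRCm38) had 1147, 1137 and 1186 normalized counts in ETV6-NCOA2 replicates 1 to 3, 975, 910.4 and 996 in KAT6A-NCOA2 libraries and 1609, 1278 and 1329 in Empty vector libraries. The groups did not overlap: all KAT6A-NCOA2 libraries were lowest, all ETV6-NCOA2 libraries intermediate and all Empty vector libraries highest. Trp53 fell with KAT6A-NCOA2 against Empty vector (log2 fold change -0.54 ± 0.087 SE, limma adjusted p = 0.00197), and the difference of ETV6-NCOA2 from Empty vector was -0.27 ± 0.087 (adjusted p = 0.109). Mdm2 (chr10:117688875-117710758, minus strand) had 2334, 2358 and 2188 normalized counts with ETV6-NCOA2, 2297, 2611 and 2416 with KAT6A-NCOA2 and 1733, 2096 and 1823 with Empty vector. Every library of either fusion exceeded every Empty vector library, and the fusions overlapped each other. Mdm2 rose with KAT6A-NCOA2 (log2 fold change 0.38 ± 0.082, limma adjusted p = 0.00872), and was at 0.29 ± 0.082 with ETV6-NCOA2 (adjusted p = 0.0874). The ratio of Mdm2 to Trp53 within a library, looked at after both values were known and therefore not tested, was 2.03, 2.07 and 1.85 with ETV6-NCOA2, 2.36, 2.87 and 2.43 with KAT6A-NCOA2 and 1.08, 1.64 and 1.37 with Empty vector. Mdm4, which binds p53 and blocks its activity, averaged 1703 ± 126 with ETV6-NCOA2, 1326 ± 164 with KAT6A-NCOA2 and 1531 ± 278 with Empty vector in normalized counts (SD, n = 3 each). The limma fit used throughout called Mdm4 in no comparison (lowest adjusted p = 0.161, between the fusions). With the replicate number as a block over the 6 fusion libraries, limma called Mdm4 higher with ETV6-NCOA2 (adjusted p = 0.00846). The calls of Trp53 and Mdm2 with KAT6A-NCOA2 stood whichever of the 6 libraries was left out.

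**Figure D3:**
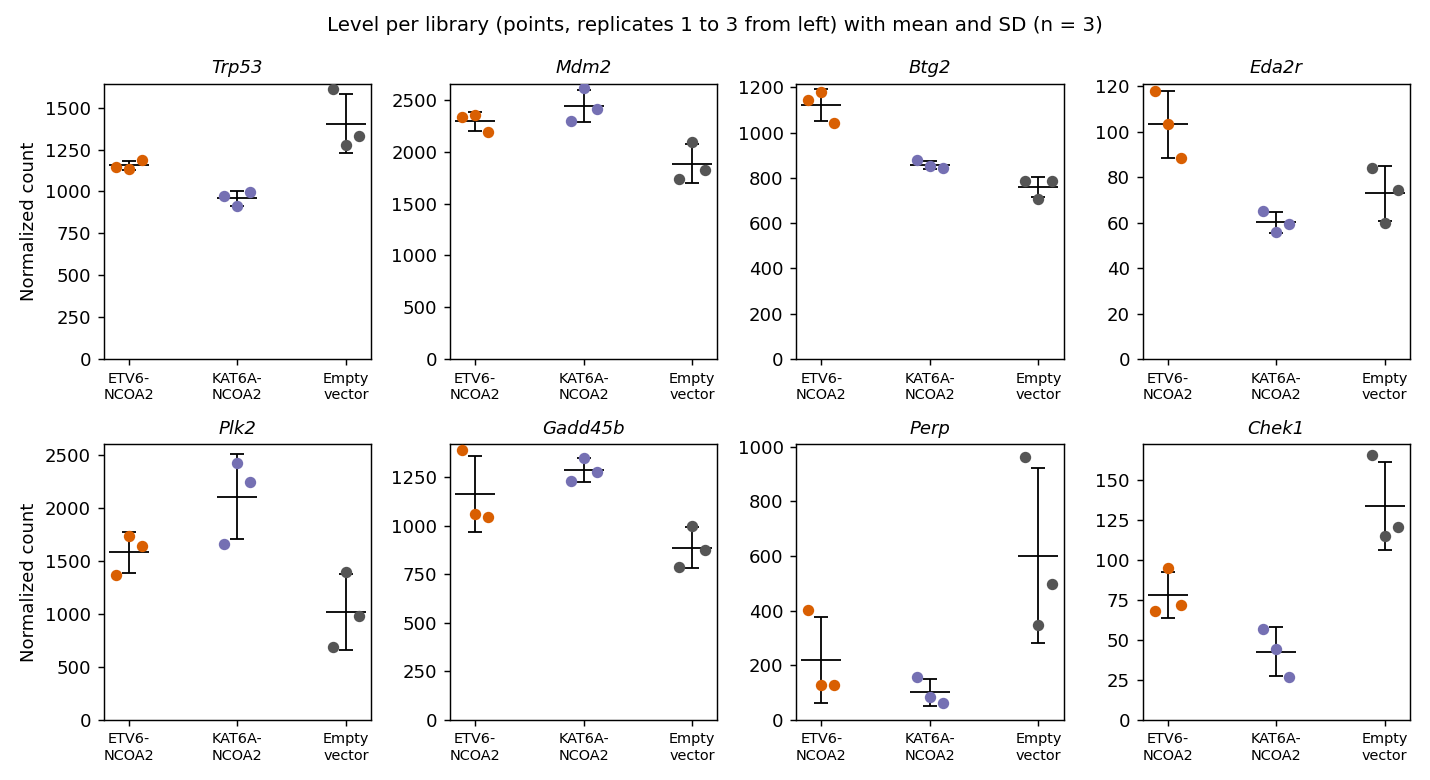
Normalized counts in each library (points) with the group mean and SD (lines, n = 3) for 8 called genes, one panel a gene, ETV6-NCOA2 left, KAT6A-NCOA2 in the middle and Empty vector right. The 3 groups are separate for Trp53, and all ETV6-NCOA2 values of Btg2, from 1041 to 1178, lie above all other libraries.

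Among the damage kinases, Atr and its effector Chek1 fell with KAT6A-NCOA2, while Atm and Chek2 were not called. Chek1 (chr9:36708482-36727065, minus strand), which halts replication and mitosis when forks stall, had 67.9, 94.7 and 72.0 normalized counts with ETV6-NCOA2, 57.0, 44.1 and 26.9 with KAT6A-NCOA2 and 165, 115 and 121 with Empty vector. These are 3 separate ranges, with ETV6-NCOA2 between the others. The fall with KAT6A-NCOA2 had a log2 fold change of -1.67 ± 0.26 (limma adjusted p = 0.00189) and was called whichever library was left out. The difference of ETV6-NCOA2 was -0.76 ± 0.26 from Empty vector (adjusted p = 0.133) and 0.91 ± 0.26 from KAT6A-NCOA2 (adjusted p = 0.0960). With the replicate number as a block, limma called the second (adjusted p = 0.0460 over 9 libraries and 0.0363 over 6). DESeq2 called both (adjusted p = 0.0482 and 0.0471). Chek1 was also the least deeply read of these values: KAT6A-NCOA2 replicate 3 held 23 reads, with an exact Poisson 95% interval of 14.6 to 34.5 that covers counting error only. Atr (chr9:95857597-95951781, plus strand), the kinase upstream of Chek1, had 302, 349 and 316 normalized counts with ETV6-NCOA2, 255, 259.7 and 245 with KAT6A-NCOA2 and 339, 285 and 340.1 with Empty vector. All KAT6A-NCOA2 libraries lay below the other 6, which overlapped. Its fall with KAT6A-NCOA2 was smaller (log2 fold change -0.34 ± 0.098, limma adjusted p = 0.0292) and kept its call in only 1 of the 6 fits that left out a library of the comparison, the one without Empty vector replicate 2.

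Atm (chr9:53439149-53536740, minus strand), the kinase that answers to double-strand breaks, had 278, 373 and 344 normalized counts with ETV6-NCOA2, 293, 356 and 320.2 with KAT6A-NCOA2 and 449, 334 and 406 with Empty vector. The ranges overlapped, and its adjusted p was 0.327 for ETV6-NCOA2 and 0.153 for KAT6A-NCOA2 against Empty vector. Chek2, which Atm activates, averaged 376 ± 50.1 with ETV6-NCOA2, 353 ± 26.3 with KAT6A-NCOA2 and 387 ± 28.5 with Empty vector (SD, n = 3 each), with overlap in every comparison.

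The arrest and stress genes held most of the increases: of 11, Btg2 rose with ETV6-NCOA2 and Plk2, Plk3, Sesn1 and Gadd45b rose with KAT6A-NCOA2. None fell in either comparison by the limma fit used throughout, edgeR or DESeq2. At an unadjusted limma p under 0.05, Gadd45a was lower with ETV6-NCOA2. Limma over only the 6 libraries of the comparison called Zmat3 lower with KAT6A-NCOA2. With the replicate number as a block over those 6 it did too (limma adjusted p = 0.0132). Among all genes tested, limma called 1.02% higher with ETV6-NCOA2 and 11.6% higher with KAT6A-NCOA2. Called or not, the ETV6-NCOA2 mean lay above that of Empty vector for 10 of the 11 genes (51.7% of all genes tested), and the KAT6A-NCOA2 mean for 8 (52.2% of all genes tested). Btg2 (chr1:134075170-134079120, minus strand), an antiproliferative p53 target that brings mRNAs to the deadenylase complex, had 1143, 1178 and 1041 normalized counts with ETV6-NCOA2, 877, 850.5 and 843 with KAT6A-NCOA2 and 787, 709 and 785 with Empty vector. The 3 groups did not overlap, and ETV6-NCOA2 was the highest. Its log2 fold change with ETV6-NCOA2 was 0.56 ± 0.072 against Empty vector (limma adjusted p = 0.00706) and 0.39 ± 0.072 against KAT6A-NCOA2 (adjusted p = 0.0179). The call against Empty vector stood in each of the 6 fits without one library, with adjusted p between 0.0041 and 0.0379. The call against KAT6A-NCOA2 stood in only 2 of 6, being lost without ETV6-NCOA2 replicate 1 or 2 and without KAT6A-NCOA2 replicate 2 or 3, with adjusted p between 0.0272 and 0.0834. KAT6A-NCOA2 itself was 0.17 ± 0.072 from Empty vector (adjusted p = 0.0997).

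Plk2 (chr13:110395046-110400844, plus strand), a polo-like kinase induced by stress, had 1361, 1732 and 1641 normalized counts with ETV6-NCOA2, 1653, 2419 and 2240.5 with KAT6A-NCOA2 and 684, 1397 and 978 with Empty vector. KAT6A-NCOA2 libraries all exceeded Empty vector libraries, which themselves spread widely, and ETV6-NCOA2 overlapped both. The rise with KAT6A-NCOA2 was 1.09 ± 0.23 on the log2 scale (limma adjusted p = 0.00694), the largest increase among the 34 genes in any of the 3 comparisons, and ETV6-NCOA2 stood at 0.68 ± 0.23 (adjusted p = 0.123). With the replicate number as a block, limma also called Plk2 higher with ETV6-NCOA2 (adjusted p = 0.0072 over 9 libraries, 0.0391 over 6). Its relative Plk3 (chr4:117128655-117133963, minus strand) had 560.1, 598 and 554 with ETV6-NCOA2, 579.6, 613 and 611 with KAT6A-NCOA2 and 445, 442 and 548 with Empty vector. Both fusions lay above Empty vector without overlap. Plk3 rose by 0.34 ± 0.091 with KAT6A-NCOA2 (limma adjusted p = 0.0218), a call that was lost without KAT6A-NCOA2 replicate 2 or 3 or Empty vector replicate 1. Sesn1 (chr10:41809935-41908424, plus strand), a sestrin that restrains mTORC1 signalling, had 794, 914 and 951 with ETV6-NCOA2, 1025, 1036 and 1059 with KAT6A-NCOA2 and 714, 953 and 828 with Empty vector. The KAT6A-NCOA2 values lay close together and above all others. Sesn1 rose by 0.33 ± 0.10 (limma adjusted p = 0.0400), but kept its call only without Empty vector replicate 2 among the 6 fits that left out a library, and edgeR's quasi-likelihood test gave an adjusted p of 0.05003, just above the threshold.

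The 3 Gadd45 genes, small stress-induced proteins that bind kinases upstream of p38 and JNK and the replication clamp, gave 1 call between them. Gadd45b (chr10:80930073-80932204, plus strand) had 1389.8, 1061 and 1045 normalized counts with ETV6-NCOA2, 1234, 1352 and 1279.8 with KAT6A-NCOA2 and 789.5, 999 and 876 with Empty vector. Both fusions exceeded every Empty vector library. It rose with KAT6A-NCOA2 (log2 fold change 0.54 ± 0.12, limma adjusted p = 0.00844) whichever library was left out, and ETV6-NCOA2 was at 0.39 ± 0.12 (adjusted p = 0.101). Gadd45g averaged 870.0 ± 219 with ETV6-NCOA2, 755 ± 30.6 with KAT6A-NCOA2 and 573 ± 31.2 with Empty vector (SD, n = 3 each), above Empty vector without overlap for both fusions but past limma's threshold for neither (limma adjusted p = 0.0566 for ETV6-NCOA2 and 0.0593 for KAT6A-NCOA2). For ETV6-NCOA2, edgeR gave Gadd45g an adjusted p of 0.0474 and DESeq2 0.00529, and for KAT6A-NCOA2 limma over the 6 libraries of the comparison gave 0.00922. Gadd45a, the member with the firmest record as a p53 target, averaged 535 ± 94.0 with ETV6-NCOA2, 588 ± 89.6 with KAT6A-NCOA2 and 669.9 ± 58.5 with Empty vector, with ETV6-NCOA2 below Empty vector without overlap (log2 fold change -0.34 ± 0.14, adjusted p = 0.223). Of the exonic bases of Gadd45a, 19.1% are shared with the gene E230016M11Rik on the other strand, and whether reads were counted by strand is not given in the sources used here.

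Cdkn1a (chr17:29090976-29100727, plus strand), which encodes the cyclin-dependent kinase inhibitor p21 and is the most used readout of p53 activity, was called in no comparison by limma. It had 7314, 5487 and 5041 normalized counts with ETV6-NCOA2, 4457, 5129 and 4904 with KAT6A-NCOA2 and 4068, 4881 and 4373 with Empty vector. All ETV6-NCOA2 libraries lay above all Empty vector libraries, replicate 1 by far, and KAT6A-NCOA2 overlapped Empty vector. Its log2 fold change was 0.41 ± 0.13 with ETV6-NCOA2 (limma adjusted p = 0.112; DESeq2 adjusted p = 0.0399) and 0.12 ± 0.13 with KAT6A-NCOA2 (limma adjusted p = 0.519). The remaining genes of the group, Ccng1 (cyclin G1), Zmat3 (an RNA-binding zinc finger protein) and Phlda3 (an inhibitor of Akt), averaged 4033 ± 759.7, 1121 ± 272 and 891 ± 276 with ETV6-NCOA2, 3759 ± 138, 852 ± 52.2 and 709.8 ± 21.5 with KAT6A-NCOA2 and 3940.3 ± 134, 1041 ± 50 and 683 ± 128 with Empty vector (SD, n = 3 each). The limma fit used throughout called none of these.

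Of the 11 death genes, the limma fit used throughout called only Perp with KAT6A-NCOA2 against Empty vector and Eda2r between the fusions. Among all genes tested it called 25.4% and 3.09% in these comparisons. Perp (chr10:18845020-18857073, plus strand), a tetraspan membrane protein of p53-dependent death and of desmosomes, had 401, 128 and 128 normalized counts with ETV6-NCOA2, 156, 85.2 and 60.8 with KAT6A-NCOA2 and 963, 346 and 495 with Empty vector. In each group replicate 1 was the highest, and Perp had the largest spread of the 34 genes in every group, with SDs on the log2 scale of 0.95 with ETV6-NCOA2, 0.68 with KAT6A-NCOA2 and 0.75 with Empty vector. The KAT6A-NCOA2 libraries nevertheless lay wholly below Empty vector (log2 fold change -2.54 ± 0.50, limma adjusted p = 0.00527), the largest change of the 34 genes in any comparison, and this call stood whichever library was left out. ETV6-NCOA2 overlapped both groups, at -1.54 ± 0.50 from Empty vector (limma adjusted p = 0.116). At each replicate number Perp was lower with ETV6-NCOA2 than with Empty vector. With that number as a block, limma called Perp lower (adjusted p = 0.00201 over 9 libraries and 0.00731 over 6). Whether the numbers pair the libraries of these groups is not settled. Eda2r (chrX:97333840-97377216, minus strand), a receptor of the TNF receptor family and a p53 target, had 118, 103 and 88.4 with ETV6-NCOA2, 65.2, 55.7 and 59.6 with KAT6A-NCOA2 and 84.1, 60.1 and 74.6 with Empty vector. ETV6-NCOA2 was above both other groups without overlap. Its difference from KAT6A-NCOA2 was 0.76 ± 0.17 (limma adjusted p = 0.0383) and from Empty vector 0.50 ± 0.17 (adjusted p = 0.130). The first of these calls was lost in each of the 6 fits that left out a library of the comparison, with adjusted p between 0.0513 and 0.153.

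Neither the limma fit used throughout nor edgeR called a gene of the mitochondrial death pathway. At an unadjusted limma p under 0.05, Bbc3 was higher with ETV6-NCOA2 and Pmaip1 lower with KAT6A-NCOA2 than with Empty vector, and DESeq2 called the second. Limma also called Pmaip1 under the other scalings, over the 6 libraries of the comparison, and with the replicate number as a block (lowest limma adjusted p = 0.00308). With the block over all 9 libraries limma called Bbc3 higher with ETV6-NCOA2 (adjusted p = 0.0362). Bbc3, which encodes Puma, averaged 647 ± 33.4 with ETV6-NCOA2, 572 ± 49.1 with KAT6A-NCOA2 and 528 ± 45.5 with Empty vector in normalized counts (SD, n = 3 each), with ETV6-NCOA2 above Empty vector without overlap (adjusted p = 0.101). Pmaip1, which encodes Noxa, averaged 391 ± 109 with ETV6-NCOA2, 309 ± 17.5 with KAT6A-NCOA2 and 436 ± 52.8 with Empty vector, with KAT6A-NCOA2 below Empty vector without overlap (log2 fold change -0.49 ± 0.17, adjusted p = 0.0519). Bax, the pore former that both feed into, averaged 1779.6 ± 114 with ETV6-NCOA2, 1697 ± 82.4 with KAT6A-NCOA2 and 1700.2 ± 43.4 with Empty vector, the most even of the 3. Apaf1, the scaffold of the apoptosome, averaged 1342 ± 23.6 with ETV6-NCOA2, 1227 ± 10.3 with KAT6A-NCOA2 and 1309.9 ± 66.9 with Empty vector, and its replicates agreed most closely of the 34 genes in the fusion groups, with SDs on the log2 scale of 0.026 in ETV6-NCOA2 libraries and 0.012 in KAT6A-NCOA2 libraries. The receptors Fas and Tnfrsf10b averaged 222 ± 29.5 and 62.1 ± 11 with ETV6-NCOA2, 211 ± 24.1 and 46.4 ± 4.92 with KAT6A-NCOA2 and 199 ± 26.5 and 62.8 ± 7.03 with Empty vector. Ei24, a membrane protein of the endoplasmic reticulum, the nuclease gene Aen and Trp53inp1, which takes part in autophagy and p53 activation, averaged 1713 ± 63.4, 423 ± 13.8 and 1424 ± 103 with ETV6-NCOA2, 1605 ± 96.1, 344 ± 36.8 and 1478 ± 126 with KAT6A-NCOA2 and 1609 ± 88.8, 399.7 ± 5.36 and 1277 ± 111 with Empty vector. The limma fit used throughout called none of these in any comparison.

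Of the 5 repair and nucleotide supply genes, Xpc fell with KAT6A-NCOA2, where 13.7% of all genes tested were called lower. The limma fit used throughout, edgeR and DESeq2 called none in the other comparisons. At an unadjusted limma p under 0.05, Polk was higher and Xpc lower with ETV6-NCOA2 than with Empty vector, and Ddb2 and Ercc5 were higher with ETV6-NCOA2 than with KAT6A-NCOA2. Xpc (chr6:91489305-91515888, minus strand), the damage sensor of global nucleotide excision repair, had 479, 511 and 518 normalized counts with ETV6-NCOA2, 450.2, 516 and 509.6 with KAT6A-NCOA2 and 579, 605 and 574 with Empty vector. Both fusions lay below Empty vector without overlap and overlapped each other. The log2 fold change was -0.25 ± 0.077 with KAT6A-NCOA2 (limma adjusted p = 0.0338) and -0.22 ± 0.077 with ETV6-NCOA2 (adjusted p = 0.133). The call with KAT6A-NCOA2 was lost in all 6 fits that left out a library, with adjusted p between 0.0576 and 0.110. Ddb2, the partner of Xpc on ultraviolet lesions, averaged 88.2 ± 8.17 with ETV6-NCOA2, 67.4 ± 3.56 with KAT6A-NCOA2 and 91.1 ± 18.1 with Empty vector (SD, n = 3 each); 23.8% of its exonic bases are shared with Acp2 on the other strand. The endonuclease gene Ercc5 averaged 369 ± 23.3 with ETV6-NCOA2, 296 ± 3.72 with KAT6A-NCOA2 and 341 ± 27.0 with Empty vector, and its KAT6A-NCOA2 libraries lay below those of both other groups (adjusted p = 0.0836 for ETV6-NCOA2 against KAT6A-NCOA2). With the replicate number as a block over the 6 fusion libraries, limma called Ercc5 higher with ETV6-NCOA2 (adjusted p = 0.0308). Rrm2b, the p53-induced subunit of ribonucleotide reductase, averaged 294 ± 23.1 with ETV6-NCOA2, 317 ± 4.42 with KAT6A-NCOA2 and 261 ± 23.9 with Empty vector, with KAT6A-NCOA2 above Empty vector without overlap (adjusted p = 0.0513). Polk, the gene of a translesion polymerase, averaged 488 ± 21.8 with ETV6-NCOA2, 498 ± 22.8 with KAT6A-NCOA2 and 409 ± 59.0 with Empty vector, with overlap in every comparison.

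The libraries of a group did not carry the pathway equally. ETV6-NCOA2 replicate 1 was the highest of all 9 libraries for 14 of the 34 genes (41.18%, where it was highest for 12.98% of all genes tested), and these were Cdkn1a, Ccng1, Zmat3, Phlda3, Gadd45b, Gadd45g, Bax, Bbc3, Pmaip1, Eda2r, Aen, Ei24, Tnfrsf10b and Chek2. ETV6-NCOA2 replicate 3 was in turn the lowest of its group for 22 of the 34 (64.71%, where 31.75% of all genes were lowest there). Among the 14, Cdkn1a read 7314, 5487 and 5041 in ETV6-NCOA2 replicates 1 to 3, Zmat3 read 1432, 924 and 1008 and Pmaip1 read 516, 337 and 319. Without ETV6-NCOA2 replicate 1, Btg2 and Perp were called against Empty vector, the first higher and the second lower. In that library the mast cell and basophil sum (36024) and the neutrophil granule sum (10982) were the highest of its group and the macrophage sum (570250) the lowest. Replicate 1 held the same places in the other groups, at 25522, 1668 and 1170200 with KAT6A-NCOA2 and 118670, 19103 and 279990 with Empty vector. KAT6A-NCOA2 replicate 1 was the highest of all 9 libraries for 0 of the 34 genes (8.08% of all genes tested). Empty vector replicate 1 was the highest for 5 (14.71%, where it was 22.96% of all genes tested). Within its own group, replicate 1 was the highest for 20 of the 34 with ETV6-NCOA2 (58.82%, against 40.73% of all genes). It was the highest for 11 with KAT6A-NCOA2 (32.35%, against 35.54%) and for 15 with Empty vector (44.12%, against 37.16%). Perp, Eda2r, Bax, Bbc3, Pmaip1 and Aen were highest in replicate 1 of all 3 groups. Empty vector replicate 2 was the lowest of its group for 20 of the 34 genes (58.82%, where 37.26% of all genes were lowest there). Without it, 6 of the 34 genes were called in ETV6-NCOA2 against Empty vector (17.6%, where 12.8% of all genes were called): Btg2, Gadd45b, Mdm2 and Plk2 rose, and Perp and Trp53 fell. The median SD of the 34 genes on the log2 scale was 0.133 with ETV6-NCOA2, 0.089 with KAT6A-NCOA2 and 0.144 with Empty vector, where that of all genes tested was 0.132 with ETV6-NCOA2, 0.115 with KAT6A-NCOA2 and 0.148 with Empty vector.

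Other settings moved these counts as follows. In ETV6-NCOA2 against Empty vector, edgeR called Btg2 and Gadd45g, both higher, and DESeq2 called 6: Btg2, Cdkn1a, Gadd45b, Gadd45g and Mdm2 higher and Chek1 lower. In KAT6A-NCOA2 against Empty vector, the count dropped to 6 without KAT6A-NCOA2 replicate 2, without KAT6A-NCOA2 replicate 3 and without Empty vector replicate 1, and the 6 were each time Mdm2, Plk2, Gadd45b, Trp53, Chek1 and Perp. These are 17.6% of the 34, where 13.6%, 13.7% and 12.9% of all genes were called in these fits, in the same order. Between the fusions none of the 34 was called without ETV6-NCOA2 replicate 1 or 2 or without KAT6A-NCOA2 replicate 2 or 3. In those fits 1.19% to 1.61% of all genes were called. Libraries of the fusions with the same replicate number deviated together (correlations of 0.301, 0.199 and 0.295 for numbers 1 to 3), and with the number as a replicate block 4 genes were called over all 9 libraries (11.8%, where 7.15% of all genes were called): Btg2, Eda2r, Perp and Chek1, all higher with ETV6-NCOA2. With the block over only the 6 fusion libraries, 12 were called (35.3%, where 14.9% of all genes were called), of which Trp53, Mdm4, Btg2, Eda2r, Perp, Zmat3, Aen, Ercc5, Atr and Chek1 were higher and Sesn1 and Plk2 lower with ETV6-NCOA2.

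Lists of related genes outside the 34 showed where the rest of the pathway stood. Of 25 other p53 targets tested, none was called with ETV6-NCOA2 against Empty vector (7 higher and 1 lower at an unadjusted p under 0.05, none by edgeR, 4 higher by DESeq2), 2 rose and 7 fell with KAT6A-NCOA2, and 3 were higher with ETV6-NCOA2 than with KAT6A-NCOA2. Among all genes tested, limma called 11.6% higher and 13.7% lower with KAT6A-NCOA2, and 2.84% higher with ETV6-NCOA2 than with KAT6A-NCOA2. The cytokine gene Lif fell with KAT6A-NCOA2 by the largest factor of the list (log2 fold change -2.02 ± 0.49, limma adjusted p = 0.0143), averaging 788 ± 446 with ETV6-NCOA2, 407 ± 233 with KAT6A-NCOA2 and 1654 ± 908 with Empty vector in normalized counts (SD, n = 3 each). Fosl1, an AP-1 factor at few reads, and Ckap2, a spindle protein, fell too (-1.43 ± 0.40 and -0.78 ± 0.16, adjusted p = 0.0244 and 0.00764). Between the fusions the death adaptor gene Pidd1, the peptide transporter gene Tap1 and the mTORC1 inhibitor gene Ddit4 were higher with ETV6-NCOA2 (0.81 ± 0.14, 0.67 ± 0.14 and 0.55 ± 0.12, limma adjusted p = 0.0139, 0.0346 and 0.0326). The list's median log2 fold change was 0.117 for ETV6-NCOA2 and -0.088 for KAT6A-NCOA2, both relative to Empty vector, and 0.268 between the fusions, where that of all genes tested was within 0.016 of 0 in each. Of 17 other p53 regulators, Usp10, a deubiquitinase of p53, fell with KAT6A-NCOA2 (-0.66 ± 0.12, adjusted p = 0.00369). No other regulator was called by limma in any comparison; with ETV6-NCOA2 against Empty vector 1 was higher and 1 lower at an unadjusted p under 0.05, with none by edgeR and 1 lower by DESeq2, and between the fusions 1 was higher at an unadjusted p under 0.05 and none by edgeR or DESeq2.

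Checkpoint, recombination and mismatch repair genes were called mostly lower with KAT6A-NCOA2, where 13.7% of all genes tested were called lower and 11.6% higher. Of 21 checkpoint sensors and mediators, 13 fell and 1 rose, with a list median of -0.39 on the log2 scale. Timeless, which holds the replication fork together with Tipin, had 177 ± 7.02 with ETV6-NCOA2, 113 ± 12.3 with KAT6A-NCOA2 and 281 ± 33.4 with Empty vector in normalized counts (SD, n = 3 each). It fell with both fusions (-0.65 ± 0.12 with ETV6-NCOA2 and -1.30 ± 0.12 with KAT6A-NCOA2, limma adjusted p = 0.0236 and 1.6e-04) and was higher with ETV6-NCOA2 than with KAT6A-NCOA2 (0.64 ± 0.12, adjusted p = 0.0186). Tipin itself and Clspn, which hands the signal from Atr to Chek1, fell with KAT6A-NCOA2 (-1.16 ± 0.16 and -1.10 ± 0.16, limma adjusted p = 9.0e-04 and 0.00144). Of 26 homologous recombination and Fanconi genes, 17 fell with KAT6A-NCOA2 and none rose (none higher at an unadjusted p under 0.05, by edgeR or by DESeq2), with a median of -0.73, and Exo1 alone fell with ETV6-NCOA2 (-0.89 ± 0.18, adjusted p = 0.0328). Fancb and Exo1 were among those that fell with KAT6A-NCOA2 (-1.68 ± 0.19 and -1.36 ± 0.18), and Fancb, Blm and Fancd2 were higher with ETV6-NCOA2 than with KAT6A-NCOA2 (1.10 ± 0.19, 0.74 ± 0.15 and 0.63 ± 0.15). With KAT6A-NCOA2, 6 of 7 mismatch repair genes fell, Msh6 and Msh3 among them (-0.80 ± 0.12 and -0.51 ± 0.14), and 7 of 16 base excision repair genes, led by Lig1, Ung and Neil3 (-1.32 ± 0.18, -1.03 ± 0.20 and -0.90 ± 0.14). Neil3 was also higher with ETV6-NCOA2 than with KAT6A-NCOA2 (0.90 ± 0.14).

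**Figure D4:**
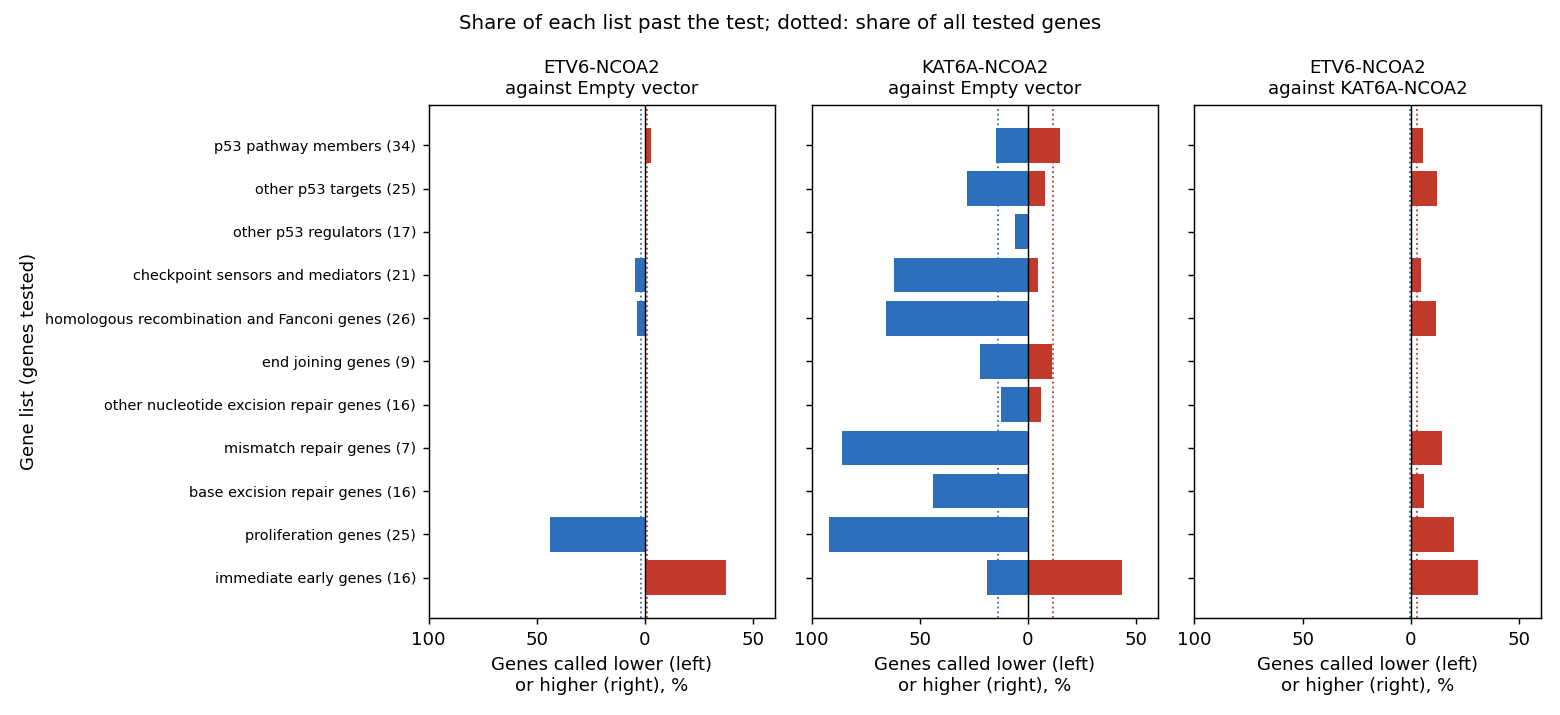
Share of each gene list called higher (right of 0) or lower (left of 0) by limma in each of the 3 comparisons, with the 34 pathway genes at the top and dotted lines at the share of all genes tested. The homologous recombination, mismatch repair and proliferation lists reach furthest to the lower side with KAT6A-NCOA2, and the immediate early genes furthest to the higher side in both comparisons with Empty vector.

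End joining and other nucleotide excision repair genes were called in both directions with KAT6A-NCOA2, where 13.7% of all genes tested were called lower and 11.6% higher. Of 9 end joining genes, Xrcc6 and Xrcc5, the Ku subunits, fell with KAT6A-NCOA2 (-0.62 ± 0.14 and -0.50 ± 0.13) and the polymerase gene Polm rose (0.40 ± 0.12). Of 16 other nucleotide excision repair genes, Ercc6 rose and Gtf2h3 and Ercc2 fell with KAT6A-NCOA2 (0.62 ± 0.14, -0.32 ± 0.08 and -0.31 ± 0.09). With ETV6-NCOA2 against Empty vector limma called none of the end joining, nucleotide excision, mismatch and base excision repair genes; 1, 2, 2 and 5 of them were lower at an unadjusted p under 0.05, edgeR called 1 base excision repair gene lower, and DESeq2 called 1 mismatch and 2 base excision repair genes lower. Of the 25 proliferation genes, 11 fell with ETV6-NCOA2 and 23 with KAT6A-NCOA2, and 5 were higher with ETV6-NCOA2 than with KAT6A-NCOA2. Rrm2, Cdc6 and Tyms fell most with ETV6-NCOA2 (-0.999 ± 0.19, -0.93 ± 0.15 and -0.91 ± 0.17), and Tyms, Mcm5 and Cdc6 with KAT6A-NCOA2 (-1.64 ± 0.17, -1.54 ± 0.20 and -1.52 ± 0.15). Of 16 immediate early genes, 6 rose with ETV6-NCOA2, among them Egr2, Fos and Dusp1 (0.86 ± 0.18, 0.72 ± 0.14 and 0.65 ± 0.15), and 7 rose and 3 fell with KAT6A-NCOA2, with Egr2 at 1.07 ± 0.18, Atf3 at 0.88 ± 0.16 and Ier3 at -0.71 ± 0.17. Their sum per library was 65110 to 74269 with ETV6-NCOA2, 58122 to 63774 with KAT6A-NCOA2 and 45320 to 51589 with Empty vector, the same order of groups as Btg2, and the part of either in the other was not tested.

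Per kilobase of exon, a level that can be set across genes, Cdkn1a was the most abundant of the 34 in every group, at 1674 normalized counts per kilobase with ETV6-NCOA2, 1359.5 with KAT6A-NCOA2 and 1249.9 with Empty vector. Ccng1 stood at 1148 with ETV6-NCOA2, 1070.3 with KAT6A-NCOA2 and 1122 with Empty vector and Bax at 1129 with ETV6-NCOA2, 1077 with KAT6A-NCOA2 and 1079 with Empty vector per kilobase; 12.2% of the exonic bases of Bax are shared with Gm45808 on the same strand. Trp53 stood at 286 with ETV6-NCOA2, 237 with KAT6A-NCOA2 and 347 with Empty vector. The least abundant was Tnfrsf10b in every group, at 11.4 with ETV6-NCOA2, 8.51 with KAT6A-NCOA2 and 11.5 with Empty vector per kilobase. Chek1 was among the lowest, at 16.9 with ETV6-NCOA2, 9.21 with KAT6A-NCOA2 and 28.8 with Empty vector per kilobase.

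The genes whose log2 values over the 9 libraries ran most like Btg2, outside the 34, were Tmem163 (Pearson r = 0.983), the AP-1 gene Junb (0.968) and Cd59a (0.966). Junb, which is also one of the immediate early genes above, had 6667, 6922 and 6408 normalized counts with ETV6-NCOA2, 5632, 5075 and 5574 with KAT6A-NCOA2 and 5228, 4988 and 5191 with Empty vector. Those most like Chek1 were Rad51ap1 (0.993), Dock9 (0.989) and the splicing factor gene Srsf7 (0.984). Rad51ap1 had 129, 178 and 146 normalized counts with ETV6-NCOA2, 124, 103 and 77.1 with KAT6A-NCOA2 and 260.0, 183 and 209 with Empty vector. These likenesses describe the 9 libraries, which share the same group differences, and carry no test.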

How the data were processed

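Polyadenylated RNA of 9 libraries (3 a group) was sequenced in bulk. The authors deposited one table of normalized counts, a signal scaled by one factor per library; cutadapt, HTSeq, DESeq2, STAR 2.4.2a and the build GRCm38 stand in the submitters' processing notes, without order or roles. Annotation and strand setting are not given in the sources used here. Within 0.01, all values of a library were whole multiples of its own step, so that reads were recovered (100% of values whole; 17070291 to 20377795 reads per library).

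Genes with at least 10 normalized counts in at least 3 libraries (13750; 3516 left out) were tested with limma 3.58.1 (trend, R 4.3.3) on log2(value + 1) over all 9 libraries, with Benjamini-Hochberg adjustment over all of them. The scripts were tested on simulated data. Alternatives were edgeR 4.0.16 and DESeq2 1.42.0 on the recovered reads, other pseudocounts (0.1 and 5), filters and scalings, the 6 libraries of a comparison alone, a replicate block and leaving out each library. No pair of libraries was a duplicate. Deviations of same-numbered libraries correlated in all 3 pairs only between the fusions, so numbers were taken to pair those. The limma fit used throughout held no replicate block, so its p-values between the fusions leave that pairing out.

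The genes and lists were chosen with earlier results of these data known. Members called in any comparison, and Trp53, Mdm2, Cdkn1a, Atm and Atr, were given by library; of each list, up to 3 called genes per comparison with the largest fold change, except that some list genes are not reported here. Exons and coordinates are from GENCODE vM21 (GRCm38) and promoters from RefSeq.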

Additional observations from a re-analysis of the deposited data

How the results depend on the processing

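No member reversed in direction with a call under any alternative. The count of called members in ETV6-NCOA2 against Empty vector, 1 by limma, was 2 with edgeR, 6 with DESeq2, 6 with a replicate block over all 9 libraries (17.6%, where 9.13% of all genes were called) and 3 with the block over the 6 libraries compared, and 1 to 6 when one library was left out (2 without ETV6-NCOA2 replicate 1, 6 without Empty vector replicate 2). In KAT6A-NCOA2 against Empty vector it was 10, stayed within 1.5 times of that under the alternatives that kept all libraries, and was 6 to 14 with one library left out. Between the fusions it was 2, and 4 with the replicate block over 9 libraries, 12 with the block over 6, and 0 to 4 with one library left out (1 without ETV6-NCOA2 replicate 3 or Empty vector replicate 3, 4 without Empty vector replicate 2). Over all genes, 390 were called by limma in ETV6-NCOA2 against Empty vector, 506 by edgeR on the recovered reads, 1016 by DESeq2, 174 with the 6 libraries alone, 1255 with the replicate block over 9 libraries, and 61 to 1765 with one library left out. In KAT6A-NCOA2 against Empty vector the count was 3488, 3444 by edgeR, and 1779 to 4320 with one library left out. Between the fusions it was 425, 382 by edgeR, 793 by DESeq2, 823 with the 6 libraries alone, 983 with the block over 9 libraries and 2053 with the block over 6, and 163 to 913 with one library left out. Where a fit left a group with 2 libraries, the spread was pooled over the groups. Same-numbered libraries of ETV6-NCOA2 and Empty vector correlated at 0.313, 0.047 and -0.076. Those of KAT6A-NCOA2 and Empty vector correlated at 0.387, 0.172 and -0.029. These values do not settle whether those numbers pair libraries, and the block is only an alternative there. In ETV6-NCOA2 against Empty vector, the block over all 9 libraries called Btg2, Gadd45g, Mdm2, Plk2 and Bbc3 higher and Perp lower. Over the 6 libraries compared, the block called Btg2 and Plk2 higher and Perp lower. No scaling moved the median log2 fold change of all genes by more than 0.03. The cause of these shifts was not tested. Chek1, Tnfrsf10b, Eda2r and Ddb2 rest on the fewest reads, and Perp held 52 reads in KAT6A-NCOA2 replicate 3. Such counts limit the precision of the fold changes of these genes.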
